A study of Arabidopsis thaliana with 15 samples.

Results

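Gene expression was compared between 2 h and 72 h in abscisic acid (ABA) in germinated seeds of Arabidopsis thaliana, on 6 of the 15 arrays of a time course. The members were the 3 arrays titled as 72 h of incubation and the 3 titled as 2 h. All seeds were of the Columbia (Col-0) accession. They were stratified for 72 h at 4 °C, germinated at 22 °C in constant white light, picked when the radicle had just protruded, and then held in 10 µM ABA in the dark at 20 °C. Both groups therefore shared the genotype, the hormone, its dose, the darkness and the temperature, and differed in the time of incubation. Replicates, 3 at each time, were labelled biological and were bulked seed from at least 2 plants, so p-values measure the spread between such pools. Arrays of the other times (0, 12 and 24 h) entered the fit for its estimate of the spread, and their levels are given as description. Seeds incubated without ABA were not analysed here, so ABA, elapsed time and the hour of harvest cannot be told apart. By the title of the series the study concerns desiccation tolerance in germinated seeds, a property that no value here measures.

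ABA is the hormone of seed maturation, dormancy and the response to drought. It binds receptors of the PYR/PYL/RCAR family, which then inhibit clade A protein phosphatases of type 2C (PP2C). The freed SnRK2 kinases activate transcription factors such as ABI5 and the ABFs, which switch on genes for late embryogenesis abundant (LEA) proteins and other protective products. In seeds these factors act together with ABI3 and FUS3, regulators of seed filling, and a germinated seed normally silences this programme as it turns to seedling growth.

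The authors deposited log2 signals from RMA, a method that subtracts background, puts arrays on a common scale and condenses the probes of each probe set. A difference of 1 is a doubling of signal, and differences are given as 72 h minus 2 h with the standard error of the fitted difference after ± (n = 3 per time). That error rests on a spread shared by all 5 times. One probe set was kept for each of 27981 loci, and a gene was called at a Benjamini-Hochberg adjusted p under 0.05 in limma. RNA came from whole seeds, so a change in the number of cells of a type and a change in RNA per cell cannot be told apart.

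One array stood apart. Across genes, 2 h replicate 2 correlated with the other 2 h arrays at r of 0.889 and 0.901, while those correlated with each other at 0.986. The 72 h arrays correlated among themselves at 0.992 to 0.994. The array had a narrower spread of values, with an interquartile range of 2.89 against 3.73 to 4.12 on the other arrays. Its profile correlated with the mean of the other 2 h arrays at 0.899, with the 12 h mean at 0.909, with the 24 h mean at 0.907 and with the 72 h mean at 0.891. It lay at least 2 above the other 2 h arrays at 491 loci and at least 2 below them at 583. The cruciferin seed storage gene CRU2 read 10.57 on it and 4.79 and 4.99 on the other 2 h arrays, and the Rubisco small subunit gene RBCS1B read 3.09 against 8.72 and 8.04. Every count is therefore given first for all arrays and then without this array. What set the array apart was not tested. The fit took the spread to be equal at all times, which did not hold at 2 h with this array. The standard deviation of the difference between arrays was 1.006 and 0.9786 for its 2 h pairs and 0.2478 to 0.2825 at 72 h. For genes where it stood apart, ± and p with all arrays can therefore understate the spread at 2 h.

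At 72 h, 8037 of the 27981 loci (28.7%) differed from 2 h, with 4288 higher (15.3%) and 3749 lower (13.4%). Without 2 h replicate 2, 10922 loci (39.0%) differed, 5490 higher (19.6%) and 5432 lower (19.4%). Both fits called 7406 loci in the same direction (26.5%), 4027 higher (14.4%) and 3379 lower (12.1%), and no locus was called in opposite directions. A further 631 loci were called only with the array and 3516 only without it. Among the loci called in both fits the median size of the difference was 0.88. Of these, 1570 were higher by at least 1, 1268 lower by at least 1, 198 higher by at least 2 and 166 lower by at least 2. The 3 arrays at 72 h all lay above the 3 at 2 h for 5129 loci (18.3%) and all below for 5036 (18.0%), or for 27.4% and 28.0% without the outlying array.

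The share of higher calls depended on the array and on the scaling. With all arrays 53.4% of called loci were higher at 72 h, and 41.6% were when each array was first centred on its median. That centring moved the median difference of all loci from -0.17 to -0.29. Without 2 h replicate 2 the corresponding shares were 50.3% and 46.6%, and the medians -0.02 and -0.06. The 6996 loci with the lowest mean signal, up to 3.21, had a median difference of -0.35 with all arrays and -0.05 without the array, which itself read a median of 0.87 above the other 2 h arrays there. Counts and medians of gene lists below are to be read against those of all loci. Over all loci 15.3% were called higher and 13.4% lower with all arrays, and 19.6% and 19.4% without 2 h replicate 2. In either direction 28.7% of all loci were called with all arrays. That share was 40.0% for SnRK2 kinases, 35.7% for ABA receptors, 35.3% for small heat shock proteins and HSP101 and 31.2% for ABA synthesis and breakdown.

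**Figure D1:**
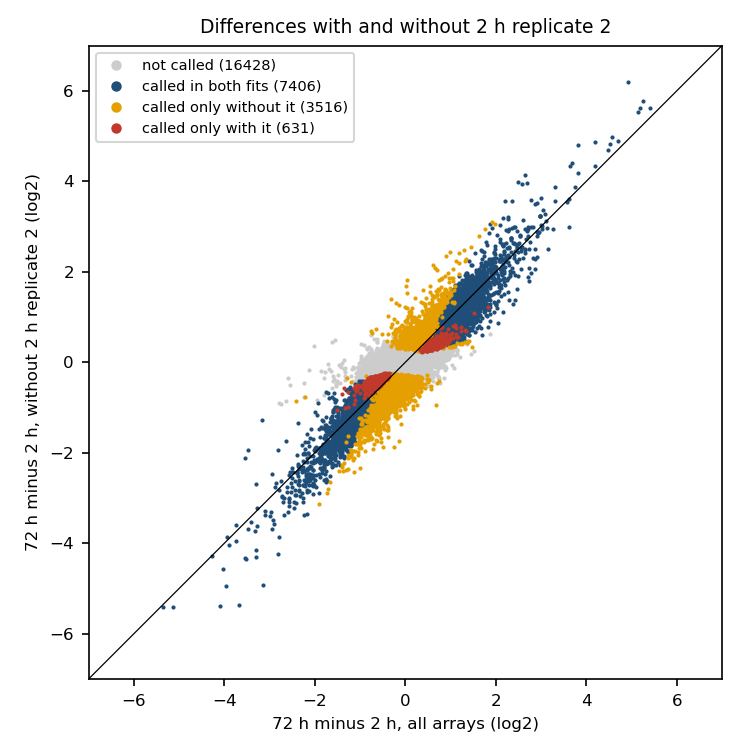
Log2 difference between 72 h and 2 h for each of 27981 loci, from the fit of all arrays (horizontal axis) and from the fit without 2 h replicate 2 (vertical axis), with equality as a line. Of the 7406 loci called in both fits, 6989 differ by less than 0.5 between the fits, and of the 3516 called only without the array, 3466 have the larger difference without it.

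Most genes of the circadian clock measured were higher at 72 h than at 2 h. The plant clock is a loop of repressors in which the morning factors LHY and CCA1 and the later pseudo-response regulators (PRR) and evening complex turn each other down over the day. Of 27 clock genes measured, 17 rose and 0 fell with all arrays, with a median of 1.36, and 18 rose and 2 fell without 2 h replicate 2, with a median of 1.47. The number that rose was 17 or 18 whichever of the 6 arrays was left out. The mean level of the list was 5.39 to 5.88 on the 2 h arrays and 7.21 to 7.31 on the 72 h arrays.

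All 5 members of the PRR family rose. PRR9 read 2.23, 3.95 and 2.55 at 2 h and 8.09, 8.20 and 8.18 at 72 h, a rise of 5.25 ± 0.45 (limma adjusted p = 3.1e-06), or 37.9-fold. PRR5 went from 4.12, 4.75 and 4.47 to 8.67, 8.60 and 8.66. The 2 h and 72 h arrays did not overlap for either gene, and the outlying array was the highest of the 2 h arrays for both. PRR7 rose by 2.99 ± 0.41, TOC1 by 2.46 ± 0.15 and PRR3 by 1.96 ± 0.27. TOC1, a repressor of the morning genes, had the narrowest error of the family.

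GI, which stabilizes the F-box protein ZTL and works with its blue-light receptor relative FKF1, read 3.05, 5.26 and 3.34 at 2 h and 8.05, 7.96 and 8.19 at 72 h. Its rise was 4.18 ± 0.40 (adjusted p = 6.71e-06) with all arrays and 4.87 without the outlying one. FKF1 rose by 3.31 ± 0.35 and ZTL by 1.02 ± 0.18. Members of the evening complex rose too, PCL1 by 2.78 ± 0.49, ELF4 by 2.34 ± 0.32 and ELF3 by 1.30 ± 0.24. EPR1 (AT1G18330), a MYB relative of LHY and CCA1, rose by 4.58 ± 0.28 from 4.26, 5.64 and 4.62. Of the CDF repressors of flowering, CDF3 rose by 2.34 ± 0.29 and CDF2 by 1.23 ± 0.21, while CDF1 (AT5G62430) was at 3.27 at both times.

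The morning gene LHY, among the 2 clock genes called lower without 2 h replicate 2, had a difference of the opposite sign. Its call depended on the outlying array and on the scaling. LHY read 8.79, 4.98 and 8.59 at 2 h and 5.78, 5.30 and 5.58 at 72 h. With all arrays it missed the threshold, at -1.90 ± 0.73 (adjusted p = 0.0661), and without 2 h replicate 2 it fell by 3.14 (adjusted p = 2.49e-06). With all arrays kept it passed after repeated quantile normalization (-2.003, adjusted p = 0.0456) and after centring (-2.02, adjusted p = 0.0417). It also passed with array weights (-2.99, adjusted p = 6.31e-06), but these gave 2 h replicate 2 a weight of only 0.0408. The weights of the other arrays were 0.52 to 3.62, so the weighted fit came close to leaving out 2 h replicate 2. CCA1 was at 5.27 at 2 h and 4.999 at 72 h, and was called in neither fit. RVE8, RVE2 and BOA were also called in neither. The means of LHY over the course were 9.02 at 0 h, 6.20 at 12 h and 5.60 at 24 h, and those of PRR9 were 4.13, 4.27 and 5.62. PIF4, a factor of light and temperature responses that the clock restrains at night, was also among the largest rises, from 3.56, 4.99 and 4.67 to 8.98, 8.94 and 8.90.

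**Figure D2:**
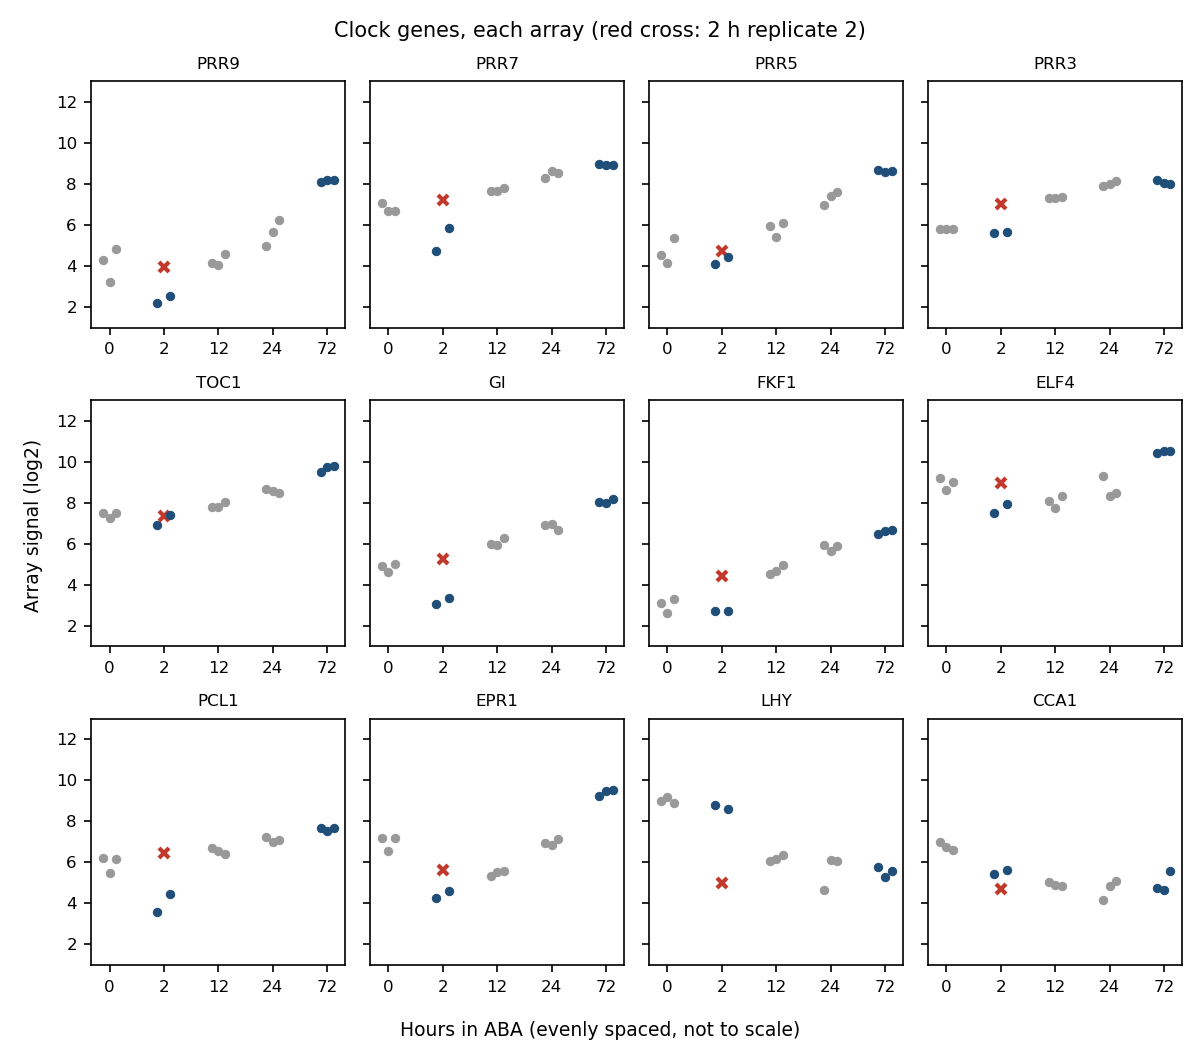
Log2 array signal of 12 clock genes on every array at 0, 2, 12, 24 and 72 h, with the arrays compared in blue, the other times in grey and 2 h replicate 2 as a red cross. The PRR genes, GI, FKF1, ELF4, PCL1 and EPR1 lie higher at 72 h than at 2 h, LHY lies lower except against the red cross, and CCA1 overlaps.

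Most measured genes of the response to low oxygen fell. In plants short of oxygen, group VII ERF factors switch on fermentation, haemoglobin and regulators of the response itself. Of 11 such genes, 8 fell and 1 rose with all arrays, with a median of -2.29, and 8 fell and 3 rose without 2 h replicate 2, with a median of -2.69. Leaving out any single array of the 6 also left 8 called lower. The mean level of the list was 6.73 to 7.53 at 2 h and 5.09 to 5.16 at 72 h.

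HB1, a haemoglobin that scavenges nitric oxide under low oxygen, read 8.74, 8.53 and 9.97 at 2 h and 4.31, 4.06 and 3.44 at 72 h. It fell by 5.14 ± 0.33 (adjusted p = 3.83e-07), 35.4-fold. ADH1, the alcohol dehydrogenase of ethanol fermentation, went from 9.11, 9.11 and 9.94 to 5.34, 5.58 and 5.56, a fall of 3.89 ± 0.26. In both genes every 72 h array was at least 3 below every 2 h array. The transcription regulators LBD41 and ERF71 fell by 2.36 ± 0.27 and 1.56 ± 0.30.

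Loci of the list without a symbol in the gene table fell as well: AT3G10040 by 3.10 ± 0.28, AT4G33070 by 2.80 ± 0.65, AT5G39890 by 2.29 ± 0.37 and AT5G15120 by 1.45 ± 0.22. The ethylene receptor gene ETR2 was the member that rose in both fits, by 0.67 ± 0.16. PDC2 and ERF73 differed by -0.01 and 0.00 with all arrays and rose by 0.60 each without the outlying array. HB1 and ADH1 were high before ABA as well, with means at 0 h of 9.81 for HB1 and 8.09 for ADH1. At 12 h they were still 8.85 and 9.06, and at 24 h they were 5.14 and 6.83.

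**Figure D3:**
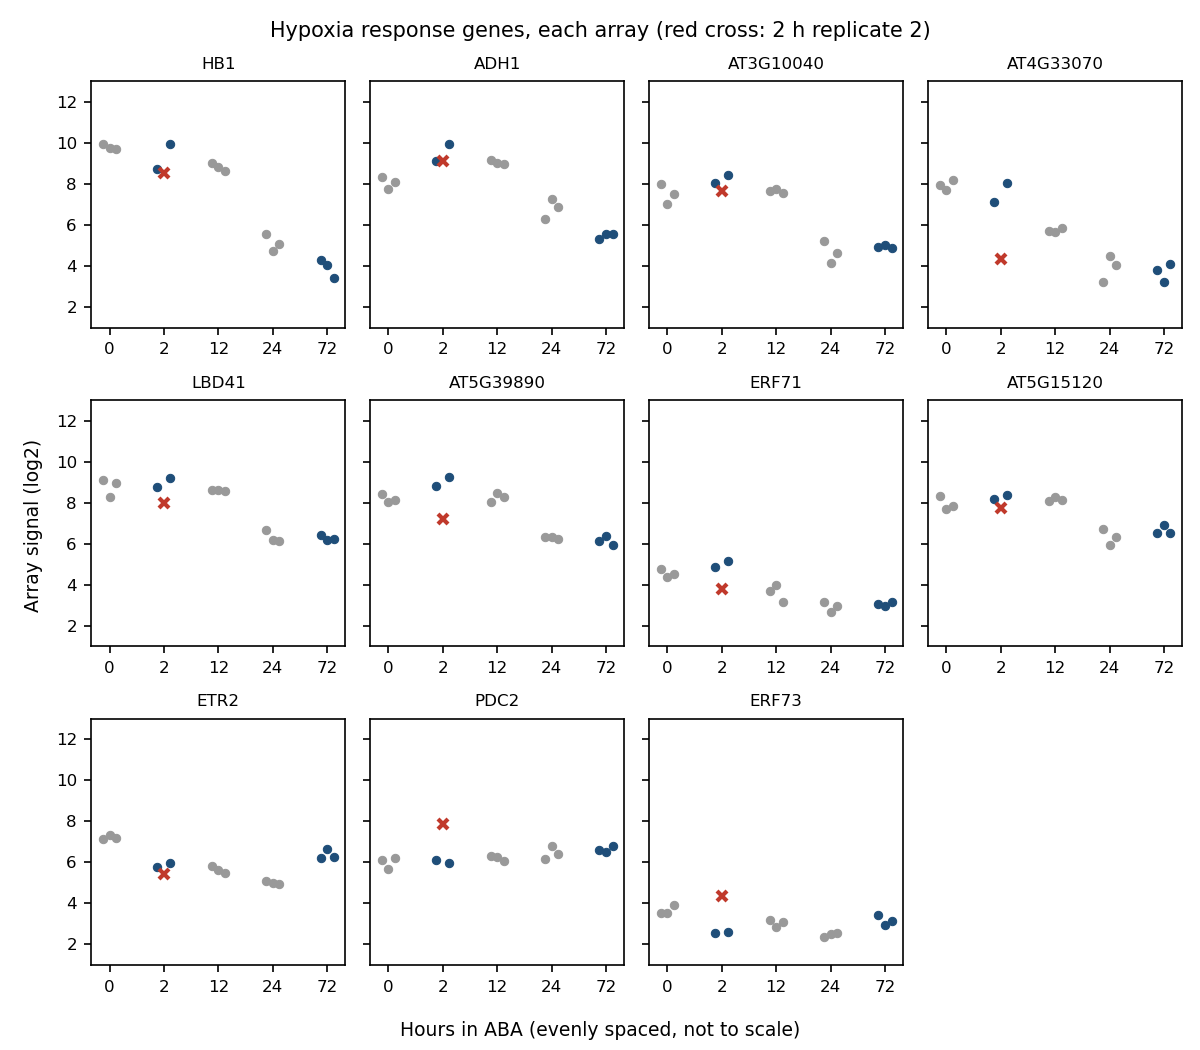
Log2 array signal of the 11 hypoxia response genes on every array by hours in ABA, with the arrays compared in blue and 2 h replicate 2 as a red cross. HB1 and ADH1 lie at 2 h near their 12 h levels and lower at 24 and 72 h, the other genes called lower lie lower at 72 h than at 2 h, ETR2 lies higher at 72 h than at 2 h, and PDC2 and ERF73 overlap.

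With all arrays the largest rise was that of GRP3S, a small glycine-rich protein gene. It read 4.40, 5.15 and 4.56 at 2 h and 9.86, 10.20 and 10.24 at 72 h, a rise of 5.40 ± 0.44 (adjusted p = 1.85e-06) or 42.2-fold. Without 2 h replicate 2 it rose by 5.62, after AT1G65500 at 6.19 and PRR9 at 5.77. Next came PRR9, the beta-glucosidase BGLU35 at 5.18 ± 0.46 and the germin-like protein GER3 at 5.15 ± 0.39. BGLU34, of the same family as BGLU35, rose by 4.47 ± 0.30 from 2.75, 3.35 and 2.65 to 6.86, 7.77 and 7.52. AT5G44440 rose by 4.70 ± 0.25, AT1G65500 by 4.92 ± 0.75 and AT5G48412 by 3.82 ± 0.29. For AT1G65500 the outlying array read 6.38, between the other 2 h arrays at 2.34 and 2.78 and the 72 h arrays at 8.58 to 8.90. The clock and light genes EPR1, PIF4, PRR5 and GI made up the rest of the 12 largest rises. These were ranked among loci called in both fits whose 2 h and 72 h arrays did not overlap.

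With all arrays the largest fall was that of FTM1, which encodes an acyl carrier protein desaturase. It read 8.65, 8.45 and 8.65 at 2 h and 3.18, 3.23 and 3.29 at 72 h, a fall of 5.35 ± 0.13 (adjusted p = 1.53e-11). The outlying array read like its replicates. Without that array HB1 and FTM1 each fell by 5.42, and AT2G43150 fell by 5.38. CDEF1, a cutinase that breaks down cuticle, fell by 4.04 ± 0.56 from 6.52, 5.94 and 8.54. AT1G12805 fell by 4.27 ± 0.22, AT2G43150 by 4.09 ± 0.78, AT4G33560 by 3.95 ± 0.56 and AT2G17850 by 3.94 ± 0.25. Falls of 3.75 ± 0.26 and 3.73 ± 0.31 were seen for AT1G52680 and AT4G39675. HB1, ADH1, the storage albumin gene SESA3 and the receptor gene PYL2 made up the rest of the 12 largest falls, ranked by the same rule. Outside that rule, ELIP2 read 9.33, 3.73 and 8.38 at 2 h and had a mean of 3.48 at 72 h.

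**Figure D4:**
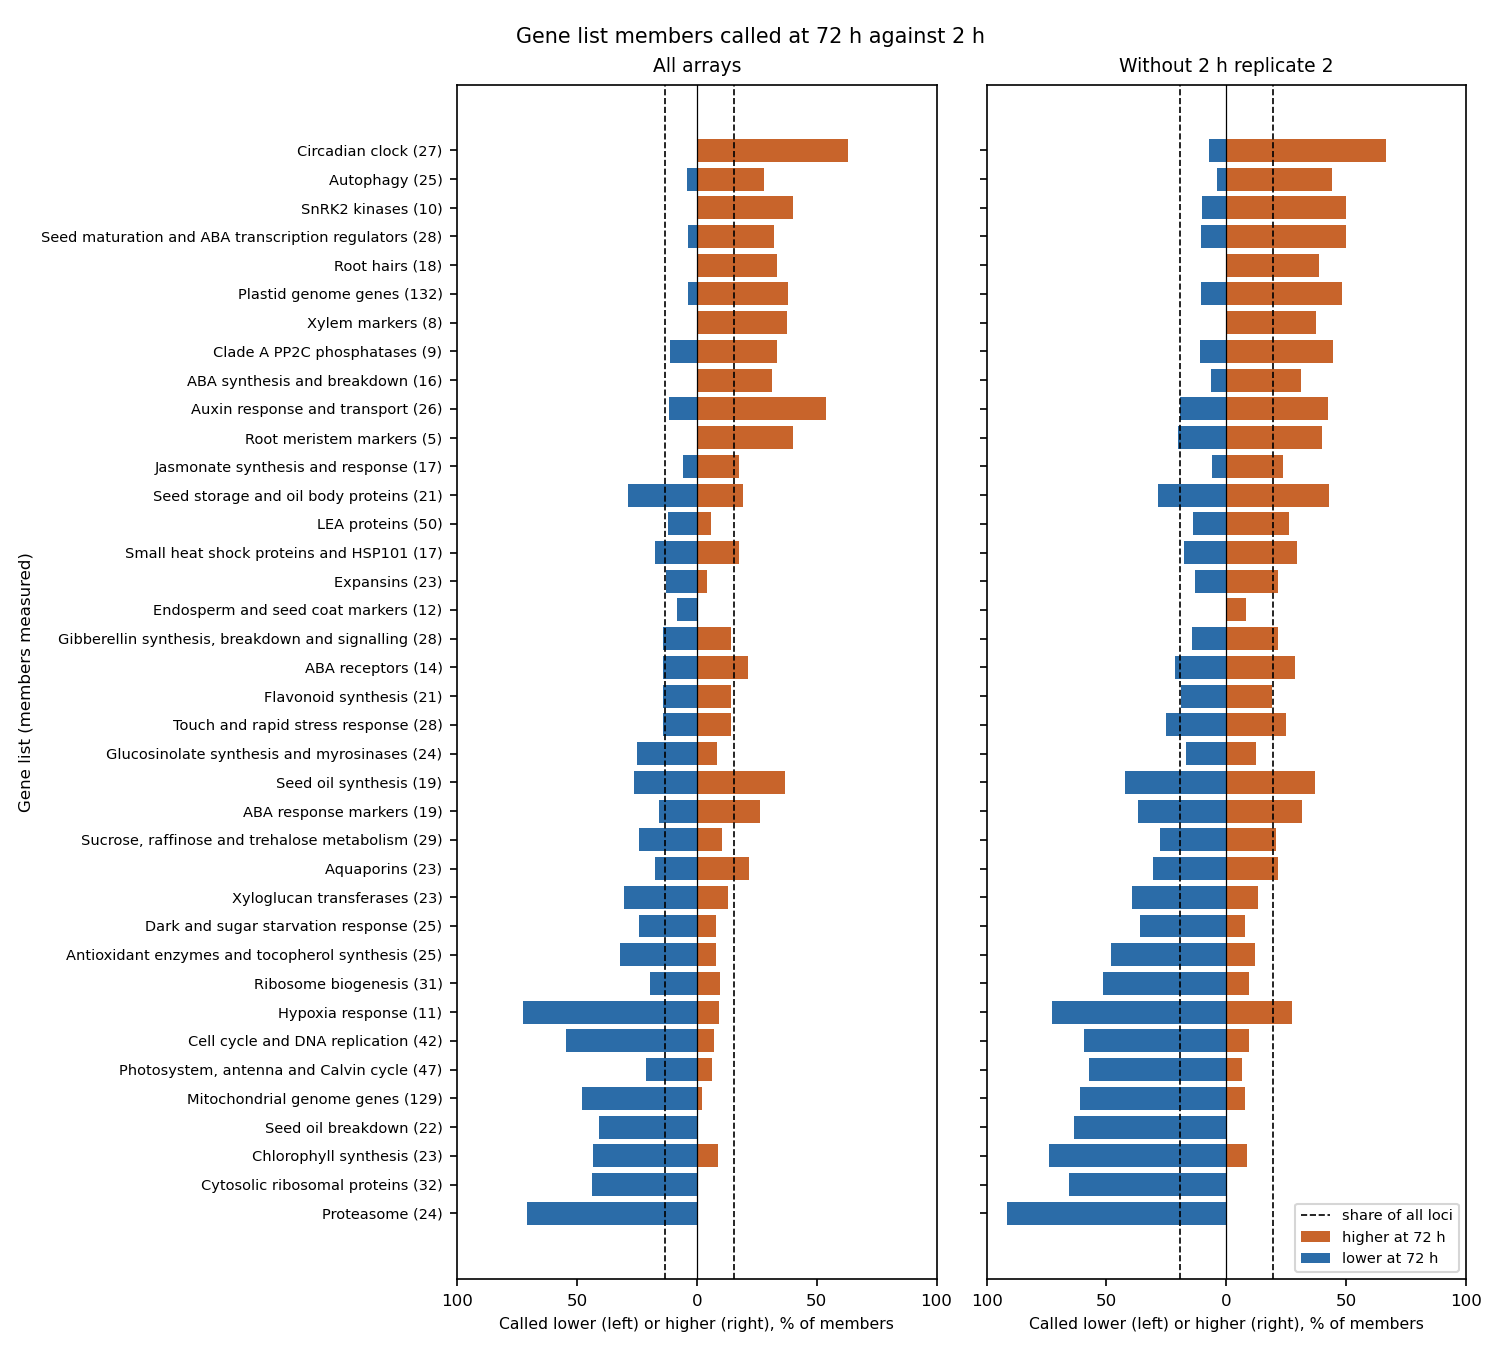
Percentage of measured members of each gene list called higher (right of 0) or lower (left of 0) at 72 h than at 2 h, for all arrays and without 2 h replicate 2. Dashed lines give the same percentages for all loci (15.3% higher and 13.4% lower with all arrays, 19.6% and 19.4% without 2 h replicate 2). The clock list exceeds them on the right and the hypoxia, proteasome and cell cycle lists exceed them on the left.

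The ABA receptor genes moved in different directions. Of 14 receptor genes, 3 rose and 2 fell with all arrays, and 4 rose and 3 fell without 2 h replicate 2. PYL2 read 8.86, 6.25 and 8.28 at 2 h and 4.04, 4.39 and 4.32 at 72 h, a fall of 3.55 ± 0.45 (adjusted p = 6.1e-05). PYL6 fell by 1.004 ± 0.20, from 4.55, 4.03 and 3.94 to 3.13, 3.20 and 3.18, the level it already had at 12 h (mean 3.21). Both genes were at higher means before ABA, 9.34 for PYL2 and 8.68 for PYL6.

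The receptor genes that rose were RCAR1 (PYL9), by 1.35 ± 0.34 with all arrays and 0.75 without the outlying one, PYL4, by 1.04 ± 0.25, and RCAR3 (PYL8), by 0.98 ± 0.17. PYL4 had a mean of 10.19 at 0 h, 7.84 at 2 h and 8.88 at 72 h. PYR1 differed by 0.19 ± 0.19 with all arrays and rose by 0.45 (adjusted p = 0.00916) without 2 h replicate 2. PYL13 was called lower only without that array, at -0.64 (adjusted p = 0.0464).

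Of the 9 clade A PP2C genes, which encode the phosphatases that the receptors inhibit, 3 rose and 1 fell with all arrays, and 4 rose and 1 fell without 2 h replicate 2. ABI1 read 6.57, 6.31 and 7.06 at 2 h and 8.25, 8.33 and 8.32 at 72 h, a rise of 1.66 ± 0.17 (adjusted p = 1.15e-05). ABI2 rose by 1.24 ± 0.25. HAI1 fell by 1.48 ± 0.20, from 4.65, 4.83 and 5.36 to 3.23, 3.90 and 3.27. HAI3 rose by 0.75 ± 0.22, or 0.44 without 2 h replicate 1, a call lost without 72 h replicate 3 (adjusted p = 0.0705) or with centred arrays (adjusted p = 0.0574). PP2CA and HAB2 were called in neither fit and differed by -0.13 ± 0.17 and 0.27 ± 0.23. AHG1, a PP2C of seeds, was at 3.30 at 0 h, 9.11 at 2 h and 8.50 at 72 h, a difference of -0.61 ± 0.22 that missed the threshold (adjusted p = 0.0509). Leaving out 2 h replicate 1 gave 2 members called lower.

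Of 10 SnRK2 kinase genes, 4 rose and 0 fell with all arrays, with a median of 0.44, and 5 rose and 1 fell without 2 h replicate 2. SNRK2.3 and SNRK2.2, kinases at the core of ABA signalling, rose by 0.98 ± 0.16 and 0.93 ± 0.16. SNRK2.3 read 7.86, 7.08 and 7.63 at 2 h and 8.48, 8.54 and 8.48 at 72 h, so its arrays did not overlap. SNRK2.4 and SNRK2.9 rose by 0.56 and 0.58 and lost the call when arrays were centred (adjusted p = 0.0749 and 0.0941) and without 72 h replicate 1 (adjusted p = 0.0556 and 0.0664), which left 2 rises. SNRK2.9 also lost it without 2 h replicate 1 or 72 h replicate 3 (adjusted p = 0.0554 and 0.057).

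Of 28 regulators of seed maturation and of ABA-controlled transcription, 9 rose and 1 fell with all arrays, with a median of 0.25, and 14 rose and 3 fell without 2 h replicate 2, with a median of 0.39. EEL, a bZIP factor of late seed maturation, read 6.71, 7.76 and 7.27 at 2 h and 9.68, 9.57 and 9.66 at 72 h, a rise of 2.39 ± 0.22 (adjusted p = 5.04e-06). ABF1, a bZIP factor of the ABI5 group, rose by 2.09 ± 0.40 and FUS3 by 1.32 ± 0.28. AGL67, a MADS-box factor, rose by 1.33 ± 0.26 from 8.04, 9.16 and 9.02 to 10.26, 9.91 and 10.03. AREB3 rose by 1.10, ABF4 by 0.98, ABI4 by 0.79 (0.52 without the outlying array), BZIP53 by 0.62 and the VAL repressor gene HSI2 by 0.47. The HSI2 call was lost without 2 h replicate 3 or 72 h replicate 1 or 3 and with centred arrays or repeated quantile normalization (adjusted p of 0.0514 to 0.134). AFP1, whose product promotes the breakdown of ABI5, was the member that fell, by 1.15, a call lost on leaving out any other single array than 2 h replicate 2.

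ABI3 and ABI5 themselves were not called in either fit. ABI5 read 9.82, 9.97 and 10.13 at 2 h and 9.75, 9.64 and 9.62 at 72 h, against a 0 h mean of 5.65. Its difference was -0.30 ± 0.14 (adjusted p = 0.122). ABI3 read 9.00, 8.07 and 9.09 at 2 h and 8.91, 8.85 and 8.95 at 72 h, and its difference of 0.18 ± 0.21 became -0.14 without the outlying array. DOG1, a dormancy gene, read 3.24, 4.96 and 3.10 at 2 h and 4.09, 4.25 and 3.89 at 72 h. It rose by 0.91 (adjusted p = 0.00116) without the outlying array, and its difference was 0.31 ± 0.37 with it and -0.02 without 2 h replicate 3.

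Of 16 genes of ABA synthesis and breakdown, 5 rose and 0 fell with all arrays, and 5 rose and 1 fell without 2 h replicate 2, with medians of 0.09 and 0.03. CYP707A2, an enzyme that breaks ABA down in seeds, read 7.03, 6.36 and 7.08 at 2 h and 8.65, 8.63 and 8.60 at 72 h, a rise of 1.81 ± 0.21 (adjusted p = 3.26e-05). Of the 6 genes listed of the NCED family, which is known for the step committed to ABA, 3 rose. NCED2 rose by 1.25 ± 0.23, NCED5 by 1.07 ± 0.32 and NCED9 by 0.92 ± 0.25, and ABA1, of an earlier step, by 0.81. Without 72 h replicate 1 the count of rises was 2, and NCED5 (adjusted p = 0.098), NCED9 (adjusted p = 0.0615) and ABA1 (adjusted p = 0.0564) lost the call. NCED5 also lost it without 2 h replicate 1 or 72 h replicate 3 (adjusted p = 0.0729 and 0.0755).

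Of 19 ABA response markers, 5 rose and 3 fell with all arrays, with a median of 0.16, and 6 rose and 7 fell without 2 h replicate 2, with a median of -0.49. With arrays centred 4 rose and 6 fell. The linker histone gene HIS1-3 read 5.77, 9.63 and 5.94 at 2 h and 9.69, 9.89 and 9.83 at 72 h, a rise of 2.69 ± 0.70 with all arrays and 3.95 without the outlying one. RCI2A, a small membrane protein gene of the cold and salt response, rose by 1.36 ± 0.23, COR413IM1 by 1.18 ± 0.14 and HVA22A by 1.18 ± 0.14. P5CS1, the proline synthesis enzyme, fell by 1.45 ± 0.43, and NAC019 fell by 1.18 ± 0.29, and fell by 0.76 without the outlying array. The P5CS1 call was lost on leaving out 2 h replicate 1 or 3 or 72 h replicate 1 or 2, with adjusted p of 0.0532 to 0.0727, and with repeated quantile normalization (adjusted p = 0.106).

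LTI65 (RD29B), a gene often used as a reporter of ABA, read 9.98, 10.33 and 10.41 at 2 h and 10.39, 10.41 and 10.43 at 72 h, against 3.08 on average at 0 h. Its difference of 0.17 ± 0.20 was not called (adjusted p = 0.514). HVA22B was at 11.53 and 11.56, and was likewise called in neither fit. RD26, a NAC factor, was at 7.09 at 2 h, 4.44 at 12 h and 5.97 at 72 h.

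Most LEA genes were not called between 2 h and 72 h. Of 50 LEA genes, 3 rose and 6 fell with all arrays, with a median of -0.06, and 13 rose and 7 fell without 2 h replicate 2, with a median of 0.15. Both counts depended on further arrays: 1 rose without 2 h replicate 1 or without 72 h replicate 1 or 3, and 11 fell without 2 h replicate 1. The mean level of the list was 7.86, 8.75 and 8.28 on the 2 h arrays and 8.14 to 8.20 at 72 h, so the 72 h arrays lay within the range at 2 h. The outlying array was the highest of all 6.

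EM1 read 9.95, 10.88 and 10.22 at 2 h and 10.44, 10.53 and 10.38 at 72 h, and its group means at 0 h and 72 h were 4.02 and 10.45. The difference from 2 h was 0.10 ± 0.20, with a sign that turned to -0.10 without 2 h replicate 1 and to -0.02 with centred arrays. GEA6 (EM6) differed by 0.25 ± 0.27 and by -0.05 without 2 h replicate 1. The dehydrin RAB18 (AT5G66400) read 9.81, 11.89 and 10.55 at 2 h and 11.50, 11.58 and 11.54 at 72 h. Without the outlying array EM1, GEA6 and RAB18 rose by 0.37, 0.63 and 1.36 (adjusted p = 0.0403, 0.0119 and 2.21e-05).

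The LEA genes that moved in both fits included vegetative dehydrins. COR47 fell by 1.34 ± 0.30 from 7.84, 8.44 and 9.48 to 7.42, 7.20 and 7.11. ERD10 fell by 1.90 ± 0.60 from 6.84, 4.60 and 8.30, a call lost without any one of the arrays other than the outlying one (adjusted p of 0.0583 to 0.0747). Without 2 h replicate 2 it fell by 2.89 and without 2 h replicate 3 its difference was -1.04. AT2G03850 fell by 1.45 ± 0.33. DI21, a drought-induced gene, rose by 1.32 ± 0.19 from 9.80, 10.81 and 10.11 to 11.54, 11.60 and 11.56.

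Seed storage and oil body genes differed among themselves and depended on the outlying array. Of 21 genes, 4 rose and 6 fell with all arrays, with a median of -0.60, and 9 rose and 6 fell without 2 h replicate 2, with a median of -0.18. Leaving out any other array gave 1 or 2 rises, and leaving out 2 h replicate 1 gave 11 falls. The mean level of the list was 6.42, 9.64 and 7.19 on the 2 h arrays and 7.05 to 7.33 at 72 h. On the outlying array it was higher than on any other array of the course, where the highest mean was 8.61.

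The 2S albumin genes SESA2, SESA3 and SESA4 fell in both fits, though SESA2 lost the call without 72 h replicate 2 (adjusted p = 0.062) and SESA4 without 72 h replicate 1 or 3 (adjusted p = 0.0959 and 0.0971). SESA4 fell by 1.58 with all arrays and fell by 0.69 without the outlying one. SESA3 read 5.88, 10.71 and 6.89 at 2 h and 4.41, 3.92 and 4.51 at 72 h, a fall of 3.55 ± 0.83 (adjusted p = 0.00561) with all arrays and 2.11 (adjusted p = 0.000135) without the outlying one. CRU2 fell by 3.16 ± 1.07 with all arrays and fell by 1.27 without it, and lost the call without any one 72 h array (adjusted p of 0.0784 to 0.109). The vicilin-like gene PAP85 went the other way, from 8.04, 11.86 and 8.62 to 11.39, 11.38 and 11.36. It rose by 1.88 ± 0.65 (adjusted p = 0.0447) with all arrays and 3.05 without the outlying one, and lost the first call with any other array left out or with arrays centred.

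Among genes of the oil body, the organelle that stores seed oil, OLEO2 rose by 1.16 ± 0.34 and OLEO3 fell by 0.60 ± 0.11, while OLEO1 and OLEO4 were called in neither fit. OLEO2 rose by 0.64 without 2 h replicate 1 and lost the call without 72 h replicate 1 or 3 (adjusted p = 0.0514 and 0.0566) or with centred arrays (adjusted p = 0.0557). CRA1, another cruciferin, was at 9.06 at 2 h and 10.18 at 72 h, a difference of 1.12 ± 0.64 with all arrays and a rise of 2.24 without the outlying one. The tonoplast aquaporin TIP3;1, a marker of protein storage vacuoles, read 5.38, 10.45 and 6.52 at 2 h and 10.00, 9.83 and 9.99 at 72 h. It rose by 3.99 (adjusted p = 2.31e-08) without 2 h replicate 2 and by 2.49 ± 0.84 (adjusted p = 0.0386) with it, the latter lost without any one of the other arrays.

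**Figure D5:**
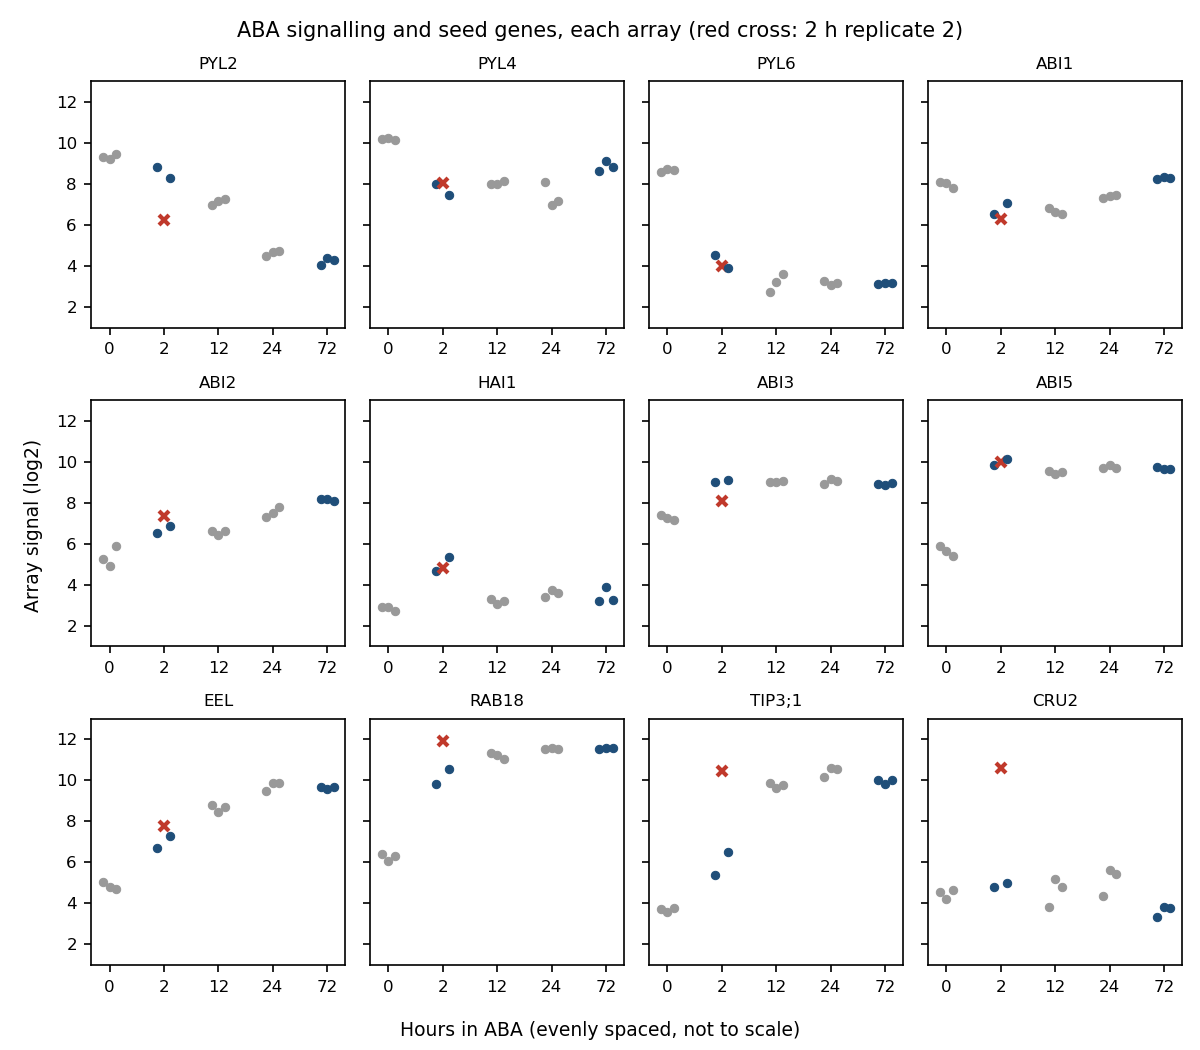
Log2 array signal of 12 ABA signalling and seed genes on every array by hours in ABA, with the arrays compared in blue and 2 h replicate 2 as a red cross. PYL2 and PYL6 are lower and ABI1, ABI2 and EEL higher at 72 h than at 2 h, ABI3 and ABI5 stay near their 2 h levels, and the red cross lies above the 2 h replicates for RAB18, TIP3;1 and CRU2.

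Among genes of cell division falls outnumbered rises. Of 42 cell cycle and DNA replication genes, 23 fell and 3 rose with all arrays and 25 fell and 4 rose without 2 h replicate 2, with a median of -0.63 in each fit. The count of falls was 18 to 25 over the fits without a single array, and without 2 h replicate 1 the rises numbered 6. PCNA1, the sliding clamp of DNA polymerase, read 7.26, 7.12 and 7.30 at 2 h and 4.70, 4.77 and 4.72 at 72 h, a fall of 2.50 ± 0.16 (adjusted p = 3.16e-07). PCNA2 fell by 1.53 ± 0.23. TSO2, a ribonucleotide reductase subunit, fell by 1.60 ± 0.13 and the mitotic kinase AUR1 by 1.63 ± 0.26. The subunits of the MCM helicase, which opens DNA for replication, fell together: PRL (MCM7) by 1.51, MCM3 by 1.44, MCM6 by 1.26, MCM5 by 1.14, MCM2 by 1.06 and MCM4 by 0.96. CYCD1;1, CYCD3;2 and CDC2 (CDKA;1) rose, by 0.91, 0.50 and 0.95, and CYCD3;2 lost the call without 72 h replicate 3 (adjusted p = 0.0688).

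All proteasome genes called were lower. The proteasome degrades proteins tagged with ubiquitin. Of 24 subunit genes, 17 fell and 0 rose with all arrays, with a median of -0.58, and 22 fell and 0 rose without 2 h replicate 2, with a median of -0.74. PAD1, a subunit of the core particle, read 9.28, 9.39 and 9.76 at 2 h and 8.33, 8.15 and 8.20 at 72 h, a fall of 1.25 ± 0.14 (adjusted p = 2.37e-05). PAE1 and PBA1 fell by 1.16 ± 0.17 and 1.13 ± 0.18, and the regulatory particle ATPase gene RPT4A by 0.90 ± 0.18. The groups did not overlap for PAD1, PAE1, PBA1 or RPT4A.

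All ribosomal protein genes called were lower as well. Of 32 genes of the cytosolic ribosome, 14 fell and 0 rose with all arrays, with a median of -0.36, and 21 fell and 0 rose without 2 h replicate 2, with a median of -0.44. Without 72 h replicate 1 the falls numbered 9. RPS6 (AT4G31700) read 11.28, 11.02 and 11.26 at 2 h and 10.21, 10.40 and 10.38 at 72 h, a fall of 0.86 ± 0.12. Of 31 ribosome biogenesis genes 6 fell and 3 rose with all arrays and 16 fell and 3 rose without the outlying array. The falls numbered 3 without 2 h replicate 1, 72 h replicate 1 or 72 h replicate 3 and 2 without 72 h replicate 2, and the rises numbered 5 without 2 h replicate 1. NOP56, of the particle that methylates ribosomal RNA, fell by 1.04 ± 0.29, a call lost without 2 h replicate 1 or 72 h replicate 2. PRH75, an RNA helicase gene, rose by 1.001 ± 0.12 from 9.67, 10.02 and 9.64 to 10.82, 10.75 and 10.76.

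Among loci of the mitochondrial genome falls outnumbered rises, and among those of the plastid genome rises outnumbered falls. Of 129 mitochondrial loci, 62 fell and 3 rose with all arrays, with a median of -0.58, and 79 fell and 10 rose without 2 h replicate 2, with a median of -0.88. ATMG01090 read 11.18, 10.62 and 11.11 at 2 h and 8.97, 8.85 and 8.95 at 72 h, a fall of 2.05 ± 0.15 (adjusted p = 1.08e-06). ATMG01020 and ATMG00610 fell by 2.22 ± 0.33 and 1.83 ± 0.14. The rises numbered 1 without 72 h replicate 2 or 3.

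Of 132 plastid loci, 50 rose and 5 fell with all arrays, with a median of 0.26, and 64 rose and 14 fell without 2 h replicate 2, with a median of 0.29. The rises numbered 32 and 33 without 72 h replicate 2 and 3, and 23, beside 11 falls, with arrays centred. ATCG00690 rose by 1.69 ± 0.22 from 6.88, 7.26 and 6.58 to 8.30, 8.89 and 8.60, and ATCG00110 by 1.20 ± 0.21. The loci of one organelle genome are transcribed in part as shared transcripts, so their counts do not stand for separate genes. In addition, 38 of the 132 plastid loci and 29 of the 129 mitochondrial loci duplicated the readings of some other locus. A single measurement can therefore enter these counts repeatedly.

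Among genes for burning seed oil, every member called was lower in both fits. In germinating seeds, stored oil is broken down in peroxisomes by beta-oxidation to fuel growth. Of 22 such genes, 9 fell and 0 rose with all arrays, with a median of -0.46, and 14 fell and 0 rose without 2 h replicate 2, with a median of -0.66. With arrays centred 14 fell. PKT4 (KAT1), a thiolase of the last step of beta-oxidation, read 6.98, 6.69 and 6.73 at 2 h and 4.79, 5.27 and 4.85 at 72 h, a fall of 1.83 ± 0.16 (adjusted p = 4.14e-06). The peroxisomal citrate synthase gene CSY2 fell by 1.34 ± 0.33, and the acyl-CoA oxidase genes ACX2 and ACX3 by 0.93 ± 0.20 and 0.88 ± 0.20. The oil lipase gene SDP1 fell by 0.49, a call lost without any one array other than the outlying one (adjusted p of 0.0608 to 0.127).

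Of 19 genes of oil synthesis, 7 rose and 5 fell with all arrays and 7 rose and 8 fell without 2 h replicate 2, and 5 rose and 8 fell with arrays centred. WRI1, the factor that switches on fatty acid synthesis in seeds, rose by 1.25 ± 0.21 and the desaturase gene FAD2 by 1.24 ± 0.17. TAG1 (DGAT1), of the last step of oil assembly, rose by 0.75, a call lost without any one of the same arrays (adjusted p of 0.0529 to 0.073) or with arrays centred (adjusted p = 0.0851). Among the members that fell, MOD1 fell by 1.27 ± 0.15, BCCP2 by 1.20 ± 0.27 and KASI by 0.81, all genes of plastid fatty acid synthesis named after their values were seen.

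Among nuclear genes of photosynthesis falls outnumbered rises, and their number depended on the outlying array. Of 47 genes of the photosystems, antennae and Calvin cycle, 10 fell and 3 rose with all arrays, with a median of -0.39, and 27 fell and 3 rose without 2 h replicate 2, with a median of -0.72. The falls numbered 6 without 2 h replicate 1 or 3 and 5 without 72 h replicate 1. The rises numbered 5 without 2 h replicate 1 and 1 without any one 72 h array. DRT112 (PETE2), a plastocyanin gene, read 8.45, 6.45 and 8.12 at 2 h and 5.54, 5.94 and 6.03 at 72 h, a fall of 1.84 ± 0.37 (adjusted p = 0.00212). RBCS1B fell by 3.15 ± 1.001 with all arrays and 4.92 without the outlying array, on which it read as low as at 72 h. That first call was lost without 2 h replicate 1 or 3 or 72 h replicate 1 or 3 (adjusted p of 0.0678 to 0.107).

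Of 23 chlorophyll synthesis genes, 10 fell and 2 rose with all arrays, with a median of -0.57, and 17 fell and 2 rose without 2 h replicate 2, with a median of -1.01. CHLI2, a subunit of the magnesium chelatase, read 7.52, 7.14 and 7.35 at 2 h and 5.09, 5.98 and 5.67 at 72 h, a fall of 1.76 ± 0.20 (adjusted p = 2.37e-05). GSA2, of an early step, fell by 1.26 ± 0.14. PORA, the enzyme that acts on protochlorophyllide in dark-grown seedlings, rose by 1.84 ± 0.38 from 5.51, 3.81 and 4.66 to 6.18, 6.74 and 6.57. Of 25 genes induced by darkness or sugar starvation, 6 fell and 2 rose with all arrays, and 9 fell and 2 rose without the outlying array. DIN10 fell by 1.44 ± 0.20 and the glutamate dehydrogenase gene GDH1 rose by 1.38 ± 0.20.

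Cell wall loosening genes included some of the larger falls. Of 23 xyloglucan transferase (XTH) genes, whose products cut and rejoin wall polymers, 7 fell and 3 rose with all arrays, and 9 fell and 3 rose without 2 h replicate 2. XTH24 read 6.30, 6.66 and 8.28 at 2 h and 3.62, 3.65 and 3.58 at 72 h, a fall of 3.47 ± 0.37 (adjusted p = 1.65e-05). XTH18 fell by 3.28 ± 0.32 and XTR6 (XTH23) by 2.22 ± 0.39. XTH15, XTH32 and XTH28 rose, by 1.11, 0.86 and 0.53, and without 2 h replicate 1 the rises numbered 5.

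Of 23 expansin genes, 3 fell and 1 rose with all arrays, and 3 fell and 5 rose without the outlying array. EXPA8 and EXPA1 fell by 2.24 ± 0.21 and 1.78 ± 0.16 without overlap between the times. Without 2 h replicate 3 the falls numbered 5, and the rise of EXPA20, by 0.72 ± 0.20 (0.48 without the outlying array), was lost without 72 h replicate 3 (adjusted p = 0.0519).

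Auxin genes were higher in larger numbers than lower. Of 26 genes of auxin response and transport, 14 rose and 3 fell with all arrays, with a median of 0.51, and 11 rose and 5 fell without 2 h replicate 2, with a median of 0.35. Without 72 h replicate 3 the rises numbered 9, and without 72 h replicate 1 or 2 the falls numbered 1. LAX3, an auxin influx carrier, read 4.46, 4.10 and 4.20 at 2 h and 6.42, 6.21 and 6.71 at 72 h, a rise of 2.19 ± 0.20 (adjusted p = 5.76e-06). IAA1, an auxin-induced repressor gene, rose by 1.94 ± 0.24 and AXR3 (IAA17) by 2.00 ± 0.51, or 1.29 without the outlying array. GH3.3, an enzyme gene that auxin induces, fell by 1.48 ± 0.32.

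Of 25 autophagy genes, which recycle cell contents, 7 rose and 1 fell with all arrays, with a median of 0.31, and 11 rose and 1 fell without 2 h replicate 2, with the same median. The rises numbered 11 without 2 h replicate 3, 4 without 72 h replicate 2, and 4 with arrays centred. ATG8C and ATG13 rose by 1.26 ± 0.23 and 1.25 ± 0.20, and ATG8H fell by 1.19 ± 0.20.

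Markers of particular tissues were read in the same way. Of 18 root hair genes, 6 rose and 0 fell with all arrays, and 7 rose and 0 fell without 2 h replicate 2. RSL1, a regulator of root hair cells, read 3.71, 4.40 and 3.80 at 2 h and 5.49, 5.64 and 5.75 at 72 h, a rise of 1.66 ± 0.19. RHD2, an oxidase of hair growth, and RHD6 rose by 1.60 ± 0.21 and 1.06 ± 0.14. The mean level of the list was 3.48 to 4.23 at 2 h and 3.94 to 4.18 at 72 h, close to the lower quartile of all loci (3.21). In the fits without 2 h replicate 3 and without 72 h replicate 2, 2 and 1 members were called lower.

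Of 8 xylem markers, 3 rose and 0 fell in both fits: CESA4 by 0.95 ± 0.21, MYB46 by 0.84 ± 0.18 and IRX1 (CESA8) by 0.78 ± 0.17. The median of the list was -0.05 with all arrays and 0.08 without 2 h replicate 2. Its mean level was 3.49 to 3.88 at 2 h and 3.74 to 3.98 at 72 h. Without 2 h replicate 3, 1 xylem marker was called lower. Of 5 root meristem markers, PLT1 rose by 1.22 ± 0.26 and PLT2 by 0.66 ± 0.22. The PLT2 call was lost without 2 h replicate 3 or 72 h replicate 1 or 3 and with arrays centred (adjusted p of 0.0677 to 0.167), and SCR was called lower only without 2 h replicate 2. Of 12 endosperm and seed coat markers, 0 rose and 1 fell with all arrays, and 1 rose and 0 fell without the outlying array. The mean level of that list was 5.23 to 5.75 at 2 h and 5.19 to 5.32 at 72 h. RMA values have no zero, so none of these markers can be called absent, and their part in the other results was not tested. Some lists above had 0 members called by limma in a direction in both fits. At an unadjusted p under 0.05, with all arrays, 0 proteasome, ribosomal protein and oil breakdown genes were higher and 0 root hair and xylem genes lower. Over all 27981 loci, 11488 passed that limit in either direction. Where 0 were called with all arrays alone, that limit gave 1 clock gene, 0 SnRK2 genes, 0 genes of ABA synthesis and breakdown and 1 root meristem gene lower, and 1 endosperm or seed coat gene higher.

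Calls also depended on which arrays entered the fit, for reasons that were not tested. With the other times in it, 8037 loci (28.7%) were called, and 10922 (39.0%) without 2 h replicate 2. In a fit of only the 6 arrays compared, 2658 loci (9.5%) were called, and 9292 (33.2%) without 2 h replicate 2. In those fits 15 and 18 clock genes rose, 7 and 8 hypoxia genes fell, 9 and 24 cell cycle genes fell, 5 and 20 proteasome genes fell and 3 and 17 ribosomal protein genes fell. Of the oil breakdown genes 1 and 12 fell, of the photosynthesis genes 2 and 26 fell, and of the auxin genes 3 and 11 rose. For the mitochondrial loci 46 and 75 fell, and for the plastid loci 4 and 44 rose. Of the 163 genes named by rule and called with all arrays, 59 lost the call with the 6 arrays alone. Among them were SESA3 (adjusted p = 0.098), COR47 (0.0841), AT2G03850 (0.0777), RCAR1 (0.13), HIS1-3 (0.132), AT2G43150 (0.0507), DRT112 (0.067), RPT4A (0.0762) and AT4G33070 (0.0925). CSY2, ACX2, ACX3, BCCP2, AXR3, GH3.3, PLT1, MYB46 and IRX1 lost it as well (adjusted p of 0.054 to 0.115). OLEO3, BZIP53, MCM4, MCM6, ELF3, KASI, ETR2, XTH28, ABI4 and NAC019, named from the lists, did too (adjusted p of 0.0609 to 0.143).

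Some calls with large differences changed with 2 h replicate 2. The heat shock protein gene HSP70 (AT3G12580) read 6.33, 9.35 and 5.21 at 2 h and 9.17, 8.71 and 8.76 at 72 h, a rise of 3.11 (adjusted p = 7.23e-07) without the array and a difference of 1.92 ± 0.69 (adjusted p = 0.0526) with it. With all arrays kept, it passed with a replicate block (adjusted p = 0.0479), with the lowest loci left out (adjusted p = 0.0446) or with a variance trend (adjusted p = 0.0423). CYP72A14, a cytochrome P450 gene, rose by 3.06 without the array, on which it read 7.78 against 3.35 and 5.80. With all arrays it passed with the lowest loci left out, a variance trend or every probe set tested (adjusted p of 0.0415 to 0.0494). Called with the array and not without it were AT3G54580 and AT1G12080, higher by 1.82 ± 0.59 and 1.51 ± 0.47, and AT5G18085, lower by 1.52 ± 0.48. AT3G54580 and AT1G12080 also lost the call without 72 h replicate 2 or 3 (adjusted p of 0.0839 to 0.0969), AT3G54580 without 2 h replicate 3 (adjusted p = 0.0532) and AT5G18085 without any one 72 h array (adjusted p of 0.0575 to 0.0841). Of the 5490 loci called higher without the array, it read nearer the 72 h mean than the mean of the other 2 h arrays at 2007 (36.6%). Of the 5432 called lower it did so at 2963 (54.5%). These loci were called from the same 72 h and other 2 h arrays, and the share over all loci was not computed.

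The 12 h and 24 h means did not enter the difference between 72 h and 2 h, although the spread of those arrays entered the fit that made the calls. Of the 4027 loci higher at 72 h in both fits, 3462 (86%) had a 24 h mean above their 12 h mean, and of the 3379 lower loci 309 (9.1%) did, against 54.9% of all loci. The median of the 24 h mean minus the 12 h mean was 0.29 for the higher loci, -0.44 for the lower and 0.04 for all. PRR5 had means of 4.45, 5.84, 7.33 and 8.64 at 2, 12, 24 and 72 h. PYL2 had means of 7.79, 7.16, 4.65 and 4.25. ABI1 went from 6.64 at 2 h through 6.69 and 7.41 to 8.30, and HAI1 was at 4.95 at 2 h and at 3.19, 3.58 and 3.47 later. PIF4, PRR5 and HB1 thus had 24 h means between those at 2 h and 72 h, while HAI1 and PYL6 were already near their 72 h level at 12 h.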

How the data were processed

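The authors deposited log2 expression values made with RMA, per the submitters' processing notes, for 35986 probe sets on 15 Affymetrix arrays. Labelled cDNA came from 50 ng of total RNA by NuGEN whole transcriptome amplification, per the labels' protocols. The array design, its genome build and the version of RMA were not given in the sources used here. Deposited values ran from 1.49 to 12.77 and no array was removed. All columns of the table were used.

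Probe set names carry a locus. Each of 27981 loci was represented by its probe set of highest mean, a choice that mattered for 5838 loci. RefSeq's gene table held 27241 of the loci and supplied names. Loci sharing identical values with another locus (195) were tested but not named among the largest changes.

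The test was the two-sided moderated test of limma 3.58.1 (R 4.3.3). A single linear model held 1 mean for each time over 15 arrays, without a replicate or batch term, and p-values were adjusted by Benjamini-Hochberg over 27981 loci. The fit was checked on simulated data. The simulated arrays had equal spread, so that check does not cover the wider spread at 2 h with 2 h replicate 2. Array number limits the precision.

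The comparison, the 36 nuclear gene lists (822 measured loci) and the 2 organelle lists were chosen with earlier results of these data known. Lists are described by counts and medians, with no set test. Named genes were the 12 largest rises and 12 largest falls called with and without 2 h replicate 2 with arrays not overlapping, up to 4 members per list called in both fits, 8 fixed genes, and 3 genes called only with and 3 only without that array. Further list members are named where a count is broken down, chosen after their values were seen. Alternatives were a replicate term, repeated quantile normalization, centred arrays, leaving out the lowest 25% of loci, a variance trend, array weights, every probe set, only the 6 arrays compared, adjusted p under 0.01 and leaving out single arrays. A planned description of promoter words was not run.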

Additional observations from a re-analysis of the deposited data

How the results depend on the processing

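Against 8037 loci called (4288 higher, 3749 lower), leaving out single arrays gave 5934 to 10922 (3193 to 5490 higher, 2736 to 5432 lower). A fit of only the 6 arrays compared gave 2658 (1518 higher, 1140 lower), and 9292 without 2 h replicate 2, a setting chosen after seeing the data. Adjusted p under 0.01 gave 4931 (2719 higher, 2212 lower), and centred arrays without 2 h replicate 2 gave 5631 lower. The other alternatives kept each count within 1.5 times. A replicate block gave 8237 (4236 higher, 4001 lower), and 10713 without 2 h replicate 2. The numbers share no stated origin and same-numbered arrays deviated together at r of only 0.0518, 0.2094 and 0.1454, so the block was not used further. Of 173 named genes, 106 kept direction and call under all 18 alternatives, 59 lost the call and 7 gained it under some, and 4 changed sign. For named genes, testing every probe set kept the chosen probe set, so its direction could not change. Other probe sets of the same gene were not compared. ABI3 turned to -0.142 without 2 h replicate 2 (and in the fit of the 6 arrays without it), -0.145 with the block added, -0.182 with centring added and -0.122 with array weights. Its values without single arrays ran from -0.142 to 0.364. EM1 turned to -0.1 without 2 h replicate 1 and -0.02 with centred arrays, GEA6 to -0.048 without 2 h replicate 1 and DOG1 to -0.021 without 2 h replicate 3. Without single arrays EM1 ranged up to 0.367, GEA6 to 0.633 and DOG1 to 0.908. The causes were not tested. The planned description of promoter words was not run. With 3 arrays per time, low signals and small differences are the least certain.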

Other observations

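Over all loci, 15.3% were called higher and 13.4% lower with all arrays, and 19.6% and 19.4% without 2 h replicate 2. With all arrays 28.6% of the gibberellin, of the touch and of the flavonoid genes were called in either direction. That was close to the 28.7% of all loci, and the jasmonate genes were at 23.5%. Of 28 gibberellin genes, 4 rose and 4 fell with all arrays and 6 rose and 4 fell without 2 h replicate 2. GASA6, a gibberellin-induced peptide gene, read 5.38, 6.28 and 6.54 at 2 h and 3.74, 3.37 and 3.47 at 72 h, a fall of 2.54 ± 0.27 (limma adjusted p = 1.33e-05). GA2OX2, which inactivates gibberellin, rose by 1.52 ± 0.19, and GA3, of an early synthesis step, fell by 0.97 ± 0.13. Of 17 jasmonate genes, 3 rose and 1 fell with all arrays and 4 rose and 1 fell without that array, and 4 fell without 2 h replicate 3. The synthesis gene OPR3 rose by 1.10 ± 0.16 and the repressor gene JAZ10 fell by 1.04 ± 0.22. Of 28 touch and rapid stress genes, 4 rose and 4 fell with all arrays and 7 rose and 7 fell without 2 h replicate 2, with 2 rises without 72 h replicate 3. ZF1 (AZF1), a zinc finger repressor gene, rose by 1.76 ± 0.18 and WRKY18 fell by 1.32 ± 0.27, a call lost with only the 6 arrays compared (adjusted p = 0.0678).

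Of 29 genes of sucrose, raffinose and trehalose metabolism, 7 fell and 3 rose with all arrays, and 8 fell and 6 rose without 2 h replicate 2 (6 rose also without 2 h replicate 3). The sucrose synthase gene SUS6 fell by 2.42 ± 0.43, SUS4 by 1.53 ± 0.19 and SUS5 by 1.39 ± 0.20. Of 25 antioxidant and tocopherol genes, 8 fell and 2 rose with all arrays and 12 fell and 3 rose without that array. The falls numbered 5 without 72 h replicate 1, and the rises 1 without any one 72 h array. FSD2, a plastid superoxide dismutase gene, fell by 1.96 ± 0.15 from 9.03, 8.40 and 8.84 to 6.75, 6.90 and 6.75, and the catalase gene CAT3 (AT1G20620) rose by 1.13 ± 0.19. Of 23 aquaporins, 5 rose and 4 fell with all arrays and 5 rose and 7 fell without 2 h replicate 2. The rises numbered 3 without 2 h replicate 1 or 3, and 2 without any one 72 h array or with arrays centred. TIP2 (TIP1;2) rose by 1.96 ± 0.25 and TIP4;1 by 1.34 ± 0.24.

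Of 21 flavonoid genes, 3 rose and 3 fell with all arrays and 4 rose and 4 fell without 2 h replicate 2. F3H rose by 2.71 ± 0.48 from 6.79, 4.23 and 6.63 to 8.66, 8.43 and 8.69, while FLS1, of the flavonol branch, fell by 1.67 ± 0.30. Of 24 glucosinolate and myrosinase genes, 6 fell and 2 rose with all arrays and 4 fell and 3 rose without that array. The falls numbered 11 without 2 h replicate 3 and 3 without 72 h replicate 1, and the rises 1 without 72 h replicate 3. The myrosinase gene TGG1 rose by 1.21 ± 0.14 and CYP83B1 fell by 1.03 ± 0.20, a call lost in that fit of 6 arrays too (adjusted p = 0.067). This list did not hold the beta-glucosidase genes BGLU34 and BGLU35, which rose by 4.47 and 5.18. Of 17 small heat shock protein and HSP101 genes, 3 rose and 3 fell with all arrays and 5 rose and 3 fell without 2 h replicate 2. The falls numbered 7 without 2 h replicate 1 or 3, and the rises 1 without 72 h replicate 1 or with arrays centred. HSP17.6II read 4.03, 6.83 and 4.33 at 2 h and 2.18, 2.42 and 2.14 at 72 h, a fall of 2.81 ± 0.60 (adjusted p = 0.00313).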
